A study of Mus musculus with 8 samples.

Results

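The Reg family of regenerating proteins was followed in pancreatic islets of male C57Bl/6J mice kept on regular chow (NC), with 4 kcal% of fat, or on a diet with 45 kcal% of fat (HF). All probe sets annotated to exactly 1 of Reg1, Reg2, Reg3a, Reg3b, Reg3d, Reg3g and Reg4 were taken, which gave 8 probe sets for 7 genes, of 45101 probe sets and 18194 genes on the array. Reg3b had 2 probe sets and each of the others had 1, and 0 probe sets were annotated to a member together with another gene. Mice of both groups went on their diet at weaning at 4 weeks of age and stayed on it for 12 weeks by the sample labels or 14 weeks by the methods, and C57Bl/6J mice carry a deletion in Nnt, so that both diets share it. There were 4 arrays per diet, NC replicates 1, 2, 4 and 5 and HF replicates 21, 22, 23 and 24, and each was hybridised with the pooled RNA of islets from 2 mice. Islets had been released with collagenase, separated on a Ficoll gradient and picked by hand. The n therefore counts pools, and the spread between arrays holds that of the pools as well as that of the assay.

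Reg proteins are small secreted proteins with a single C-type lectin fold. The pancreatic members are products mainly of acinar cells, the exocrine cells that make digestive enzymes, and were first studied because the gene was found in regenerating islets. Their transcripts rise strongly in acinar cells during pancreatitis and after partial pancreatectomy, in part through interleukin 6 family cytokines and STAT3. Reg3b and Reg3g are also known as antibacterial lectins of the gut, and Reg4 is known mainly from the intestinal epithelium. In an islet preparation they can come from acinar cells that stay attached to islets or from islet cells themselves. In whole islets, fewer cells of a type and less RNA per cell cannot be told apart.

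Of the 7 genes, 6 lie side by side on mouse chromosome 6, in the order Reg3b, Reg3d, Reg3a, Reg2, Reg1 and Reg3g with the pseudogene Gm52853 between Reg1 and Reg3g, and Reg4 lies alone on chromosome 3. The 250 bases before the annotated start of 4 of them are shown because 3 of them (Reg2, Reg3a and Reg3b) were among the probe sets that differed most between arrays of 1 diet, and because the start of Reg3g is the one closest in sequence to that of Reg3b while its signal was low on nearly all arrays. The sequences are those of RefSeq, on build GRCm38.p6, written 5′ to 3′ on the strand of the gene. Capitals mark matches to 3 motifs, searched on both strands, which did not overlap each other in these windows. The first is TATAAA, the core promoter element bound by TBP (also marked where it lies on the other strand). Another is the STAT motif TTCNNNGAA, and the last is an E-box, bound by basic helix-loop-helix factors, with the letters CACCTG.

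Reg2, chr6:78404905-78405154, plus strand: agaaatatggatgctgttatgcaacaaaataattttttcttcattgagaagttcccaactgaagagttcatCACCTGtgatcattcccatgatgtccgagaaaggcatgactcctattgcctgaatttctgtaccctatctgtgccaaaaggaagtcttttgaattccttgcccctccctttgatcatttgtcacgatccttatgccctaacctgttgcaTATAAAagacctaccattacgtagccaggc
Reg3a, chr6:78380459-78380708, plus strand: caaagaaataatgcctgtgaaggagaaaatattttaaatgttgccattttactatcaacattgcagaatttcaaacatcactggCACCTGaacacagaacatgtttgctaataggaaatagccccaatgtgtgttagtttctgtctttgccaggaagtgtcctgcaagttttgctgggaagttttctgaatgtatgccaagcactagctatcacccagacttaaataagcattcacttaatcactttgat
Reg3b, chr6:78370635-78370884, plus strand: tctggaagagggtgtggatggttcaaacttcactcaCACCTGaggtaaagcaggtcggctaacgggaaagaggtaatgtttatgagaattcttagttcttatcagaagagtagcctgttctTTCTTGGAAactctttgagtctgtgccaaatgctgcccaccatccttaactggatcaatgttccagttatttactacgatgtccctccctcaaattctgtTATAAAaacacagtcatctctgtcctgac
Reg3g, chr6:78468875-78469124, minus strand: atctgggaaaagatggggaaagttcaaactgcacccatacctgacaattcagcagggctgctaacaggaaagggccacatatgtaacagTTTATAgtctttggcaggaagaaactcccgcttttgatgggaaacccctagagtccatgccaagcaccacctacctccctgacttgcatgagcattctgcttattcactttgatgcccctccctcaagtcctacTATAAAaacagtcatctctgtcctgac

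TATAAA stood 30 to 25 bases before the start in Reg1 and Reg2, 29 to 24 in Reg3b and 27 to 22 in Reg3g. It was not in these bases of Reg3a, Reg3d and Reg4, so that 4 of 7 members held it, beside 12.4% of the 32851 promoters of the same length. CACCTG was in 5 of 7 members (Reg2, Reg3a, Reg3b, Reg3d and Reg4) beside 17.2% of all promoters. TTCNNNGAA was in 2 of 7, at 129 to 121 bases before the start in Reg3b and at 238 to 230 in Reg3d, beside 7.02% of all promoters. Reg3b and Reg3g shared a run of 20 bases that ended at the start (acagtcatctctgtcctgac), and 68.9% of their aligned positions were the same. For the other 20 pairs of members, identity was 47.8% to 58.5% and the longest shared run had 12 bases. A match of letters is a description and does not show that a factor binds.

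Values are the authors' GCRMA intensities on a linear scale, which depend on the probes as well as on the transcript, so each probe set is compared with itself across arrays. Probe sets whose third-highest intensity over the 8 arrays was at least 9 were kept, 25414 in all. Array medians lay between 13.03 and 13.81. Ins2, a hormone gene of the labelled tissue, was bright on all arrays, with 67580 ± 432 in NC (SD, n = 4) against 72718 ± 1199 on the HF arrays. The arrays also held strong acinar signal, since 16 of 24 measured acinar enzyme genes had an intensity above 20000 on some array. The summed intensity of those 24 genes was 564859 to 786705 in NC and 612126 to 746248 in HF. Of the duct markers, Krt7 had 3202 ± 210 in NC (SD, n = 4) and Krt19 lay at 10.7 to 40.4 in NC and 5.15 to 8.53 in HF.

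Within NC, the Reg genes of chromosome 6 ranged widely from array to array, and the diet groups overlapped for every one of them. Reg2, the mouse gene next to Reg1 and closely related to it, had intensities of 2661, 16041, 433 and 9385 in NC replicates 1, 2, 4 and 5. In HF replicates 21, 22, 23 and 24 it had 1539, 661, 3390 and 324. NC replicates 2 and 5 thus lay above all HF arrays, while NC replicate 4 lay below 3 of the 4. Reg1, the first described member, was bright on all arrays, with 27993, 39360, 22722 and 41924 in NC and 27709, 23871, 37696 and 23446 in HF. Its highest NC array was 1.85 times its lowest, against 37.0 times for Reg2.

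Reg3a had the largest span of any tested member gene with a single probe set. Its intensities were 77.0, 1006, 6.53 and 319 in NC replicates 1, 2, 4 and 5 and 18.04, 11.5, 34.3 and 6.93 in HF replicates 21, 22, 23 and 24. NC replicate 4 and HF replicate 24 were under the limit of 9, so that their level is little more than background and the ratio of 154 between NC replicates 2 and 4 is uncertain at its lower end. The other NC arrays lay above all HF arrays.

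Reg3b, the antibacterial lectin also called pancreatitis-associated protein, had 2 probe sets that ranked the arrays alike. Probe set 1448290_at gave 1862, 11613, 178 and 5030 in NC and 986, 488, 833 and 190 in HF. Probe set 1416297_s_at gave 615, 5581, 33.9 and 1952 in NC and 316, 124, 267 and 74.6 in HF. The highest NC array was 65.1 times the lowest by the former and 165 times by the latter. The ending _s_at marks probes that can match several transcripts, and the Reg3 members are related genes, so some signal of one member may come from another. Their transcript sequences were not compared here.

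Reg3d, another pancreatic Reg3 gene, had 410, 1857, 236 and 1082 in NC and 284, 211, 595 and 203 in HF. Its span was narrower, 7.86 times in NC and 2.92 times in HF. Reg3g did not pass the intensity limit. It had 5.38, 75.9, 5.12 and 8.94 in NC and 5.34, 6.36, 5.16 and 5.46 in HF, so that its signal left the bottom of the scale in NC replicate 2 alone, the array with the highest Reg2, Reg3a, Reg3b and Reg3d. Reg4 was flat, between 10.3 and 10.5 in NC and between 10.2 and 11.1 in HF, just above the limit, and it was the member with the smallest spread.

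**Figure D1:**
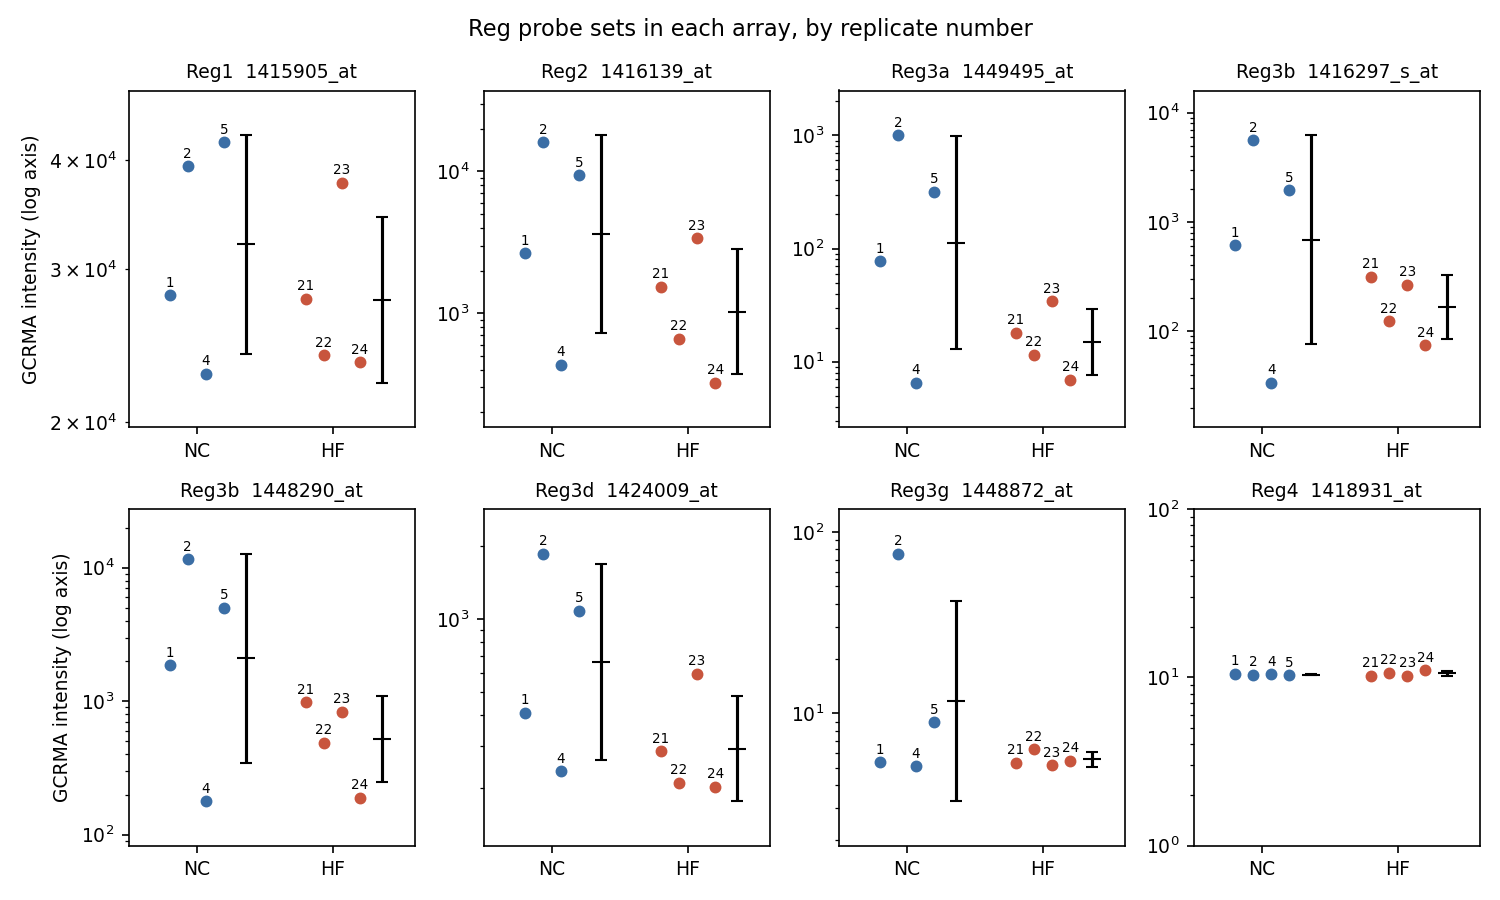
GCRMA intensity (log axis) of the 8 Reg probe sets, 1 panel each with its own axis, in NC (blue) and HF (red). Points are arrays with their replicate number, and the black bar is the log2 mean with its SD, drawn on the intensity axis; NC replicate 2 or 5 is highest and NC replicate 4 lowest in NC in the panels other than Reg4, while Reg4 stays between 10.2 and 11.1.

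The diet comparison asked whether HF feeding changed these transcripts. None of the 7 tested Reg probe sets passed limma with Benjamini-Hochberg adjustment over all kept probe sets (adjusted p under 0.05 and a fold of at least 1.5), where 3.73% of all kept probe sets passed, 0.649% of them higher and 3.08% lower in HF. At an unadjusted p under 0.05 the count was also 0 of 7 (20.9% of all), and in 0 of 7 were the diets free of overlap (14.7% of all, 7.88% with every HF array below every NC array). The log2 mean was lower in HF for 6 of the 7 and higher for Reg4, with a median log2 fold change of -1.82, beside 0.02 over all kept probe sets. The 6 lower values are not independent of each other, since these genes varied together between arrays.

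The intervals were wide. The log2 fold change of Reg3a was -2.92 (standard error 1.41, 95% interval -6.17 to 0.34, adjusted p = 0.293 by limma). Reg2 had -1.82 (standard error 1.18, interval -4.54 to 0.90, adjusted p = 0.442). The Reg3b probe sets had -1.998 (interval -4.79 to 0.80) and -2.05 (interval -5.35 to 1.25), and Reg3d had -1.19 (interval -2.70 to 0.33). These intervals hold both falls and rises past the fold limit of 1.5 for Reg2 and Reg3b, and rises of up to 1.27-fold for Reg3a and 1.25-fold for Reg3d, so these arrays do not settle the direction. For Reg1 the value was -0.21 with an interval of -0.74 to 0.32 on a probe set that stayed above 20000 on every array, where intensities limit what a fold can show. Reg4 differed by 0.02 (interval -0.09 to 0.13), but its intensities lay below every array median, little above background. A narrow interval there does not show that the transcript stayed the same. For Reg3g, fitted with all probe sets and no limit, the adjusted p was 0.816.

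NC replicate 4 decided the outcome for 1 gene. Without it, Reg3a had a log2 fold change of -4.29 and passed (adjusted p = 0.0434 by limma), the only Reg probe set to pass in any of the alternatives. The Reg3b probe sets then had -3.18 and -3.50, with adjusted p of 0.0655 and 0.0599, Reg2 had -2.84 (adjusted p = 0.146) and Reg3d had -1.68 (adjusted p = 0.168). Without NC replicate 2, the highest array, the values shrank to -1.10 for Reg2, -1.86 for Reg3a, -1.18 and -1.04 for Reg3b and -0.69 for Reg3d.

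**Figure D2:**
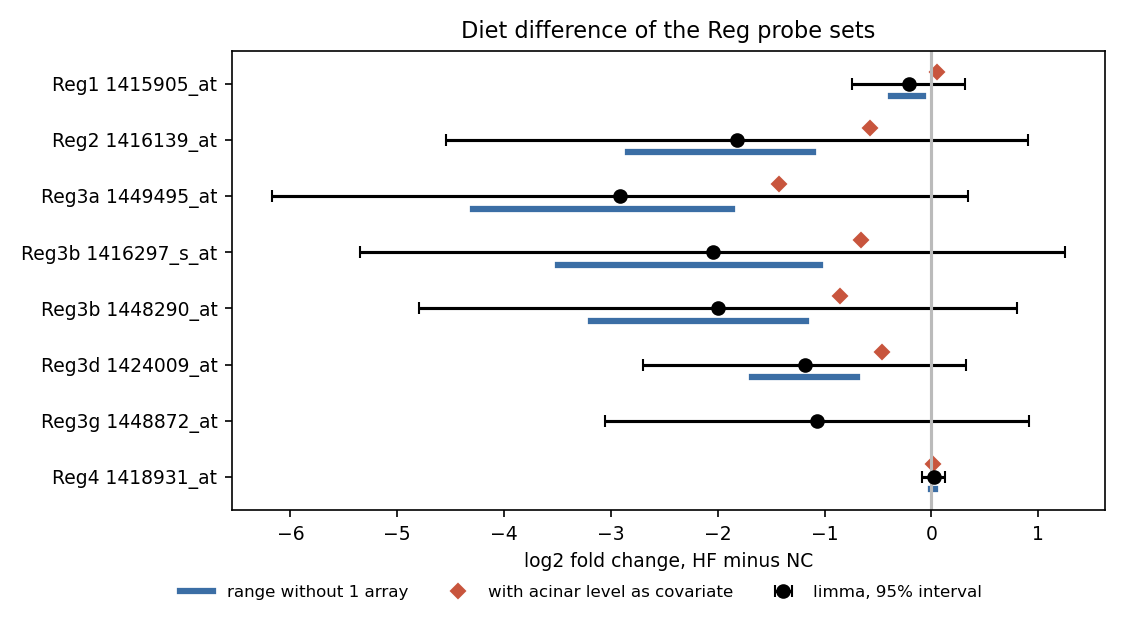
Log2 fold change (HF minus NC) of the 8 Reg probe sets. Black points and bars are the limma value with its 95% interval (for Reg3g from the fit without the intensity limit), blue bars the range when 1 array is left out, and red diamonds the value with the acinar level of each array as a covariate; all 8 intervals cross 0.

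Members were also compared with each other within the same arrays, as the difference in their log2 fold changes. Of 15 pairs of the 6 tested genes, 0 passed after Benjamini-Hochberg adjustment and 0 had an unadjusted p under 0.05 by the exact two-sided permutation test over 70 arrangements, whose smallest possible p is 0.0286. The lowest p was 0.0571 (adjusted 0.3), for Reg3a against Reg3b, where Reg3a was lower by a further 0.92 on the log2 scale. Without NC replicate 4, 6 pairs reached 0.0286, the smallest p that 3 arrays against 4 allow, and the lowest adjusted p was 0.0714. A difference in response between members was not detected with 4 arrays per diet, which does not show that they responded alike.

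The spread within a diet set Reg2, Reg3a, Reg3b and Reg3d apart. It is given as the SD of log2 intensity between arrays of 1 diet, pooled over both diets, and as a description with no test. Over the 25414 kept probe sets its median was 0.14 and its 99th percentile 0.69, and 57 probe sets exceeded 1. Of the 7 Reg probe sets, 5 were among those 57, with both probe sets of Reg3b counted. Reg3b (1416297_s_at) had 2.35 and ranked 2, Reg3a had 2.32 and ranked 3, Reg3b (1448290_at) had 1.99 and ranked 9, Reg2 had 1.94 and ranked 10, and Reg3d had 1.08 and ranked 48. The SD of Reg3a is uncertain because NC replicate 4 and HF replicate 24 were under the limit of 9. Reg1 had 0.37, a larger SD than 91.9% of the kept probe sets. Reg4 had 0.04, larger than only 3.83%, at intensities little above background.

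**Figure D3:**
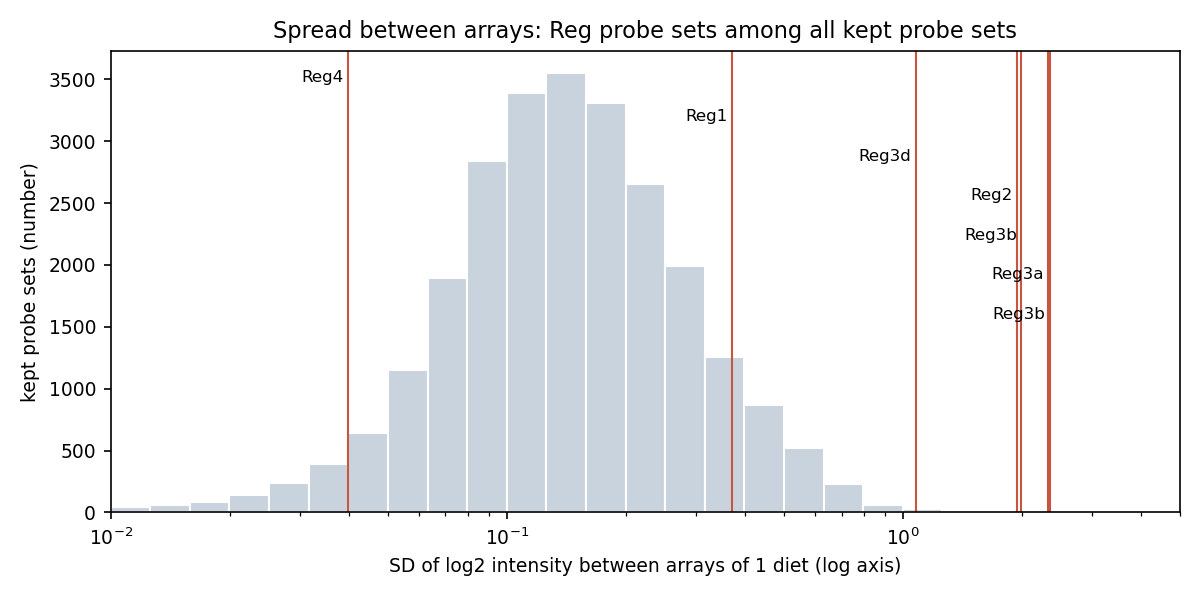
Number of kept probe sets by the SD of log2 intensity between arrays of 1 diet (log axis), with red lines at the 7 Reg probe sets. The probe sets of Reg2, Reg3a and Reg3b and that of Reg3d lie beyond the 99th percentile of 0.69, Reg1 on the right flank and Reg4 at 0.04 on the far left.

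The spread was larger in NC than in HF for the 6 kept probe sets from chromosome 6. The SD of log2 intensity was 3.13 in NC and 0.98 in HF for Reg3a, 2.60 and 1.07 for Reg3b (1448290_at), 2.32 and 1.47 for Reg2, 1.34 and 0.72 for Reg3d and 0.42 and 0.32 for Reg1. For all kept probe sets the median ratio of the highest to the lowest array was alike in both diets, 1.21 in NC and 1.23 in HF. The difference in spread between diets was not tested.

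The arrays came in much the same order for the Reg genes of chromosome 6. NC replicate 4 was lowest and NC replicate 2 or 5 highest for all 6 kept probe sets from chromosome 6, which held for 15.9% of all kept probe sets. HF replicate 24 was lowest for all 6 (16.8% of all). HF replicate 23 was highest for Reg1, Reg2, Reg3a and Reg3d (27.1% of all), with HF replicate 21 highest for Reg3b. The full order of Reg2, Reg3a and Reg3d, which was NC replicates 2, 5, 1 and 4 and HF replicates 23, 21, 22 and 24, was found in 55 kept probe sets, 0.216% of all.

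Relations between genes were computed over the 8 arrays after the mean of each diet was taken from the log2 values, 21 relations in all. Reg1, Reg2, Reg3a, Reg3b and Reg3d varied together, with Pearson r of 0.83 to 0.98 and Spearman rho of 0.81 to 0.98 over their 10 pairs. The exact permutation p of r within diets (576 arrangements), adjusted over the 21 relations, was 0.0122 to 0.0398, and that of rho was 0.0292 to 0.0693. When the 2 arrays farthest from the median were left out, r was 0.70 to 0.98, the lowest for Reg3b with Reg3d. Reg4 had r of -0.57 to -0.34 with them, none past the threshold (adjusted p of 0.0802 to 0.137 by the same permutation test), and -0.91 to -0.31 without the 2 farthest arrays, over a range of intensity under 1.

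Acinar enzymes differed between arrays in part of the same way. All 24 measured genes of the acinar list were highest in NC replicate 2 or 5 among NC arrays and lowest in NC replicate 4 (15.9% of all kept probe sets). Among HF arrays, 23 of 24 were highest in HF replicate 23 (27.1% of all). The mean log2 level of the list in NC was 13.8 and 13.9 in replicates 2 and 5, 13.5 in replicate 1 and 13.1 in replicate 4. In HF it was 13.7 in replicate 23, and 13.2, 13.3 and 13.3 in replicates 21, 22 and 24. The match was incomplete in HF. There, replicate 21 was lowest for 18 of 24 acinar genes but for 0 of the 6 Reg probe sets (24.9% of all). Replicate 24 was lowest for 1 acinar gene and all 6 Reg probe sets (16.8% of all).

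Within NC the enzymes spanned far less than Reg2, Reg3a and Reg3b. Their highest NC array was 1.22 to 3.50 times the lowest (median 1.56). In HF the span was 1.10 to 3.86 times (median 1.37), the widest for Tff2, against 4.95 for Reg3a, 5.19 and 4.24 for Reg3b and 10.4 for Reg2. Of the enzymes, 16 of the 24 had an intensity above 20000 on some array. Among the 8 that stayed under 20000 on every array, such as Gp2, a membrane protein of zymogen granules, the median ratio in NC was 2.21. Gp2 had 6173 to 13643 in NC and 3506 to 6227 in HF, and its log2 fold change of -1.07 did not pass (adjusted p = 0.0604 by limma).

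Over the 8 arrays, the mean level of the acinar list had r of 0.93 with Reg1, 0.85 with Reg2, 0.85 with Reg3a, 0.76 with Reg3b and 0.89 with Reg3d, again after the mean of each diet was taken. The adjusted exact permutation p was 0.0365 to 0.0495 for 4 of them and 0.105 for Reg3b. By rho, which was 0.60 to 0.74, 0 of the 5 relations had an adjusted permutation p under 0.05 (0.0972 to 0.241), and without the 2 farthest arrays r was 0.46 for Reg3b and 0.71 to 0.90 for the others. With the acinar level as a covariate, the log2 fold change became -0.57 for Reg2, -1.42 for Reg3a, -0.85 and -0.66 for Reg3b, -0.46 for Reg3d and 0.05 for Reg1, and none passed. The SD between arrays that remained was 1.12 for Reg2, 1.34 for Reg3a and 1.42 and 1.61 for Reg3b. These were still above that of at least 99.8% of kept probe sets. For Reg3d the SD fell from 1.08 to 0.53, larger than 97.8%, and for Reg1 it fell to 0.15, larger than 55.7%. The part of acinar cell content in the spread of the Reg genes was not tested.

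**Figure D4:**
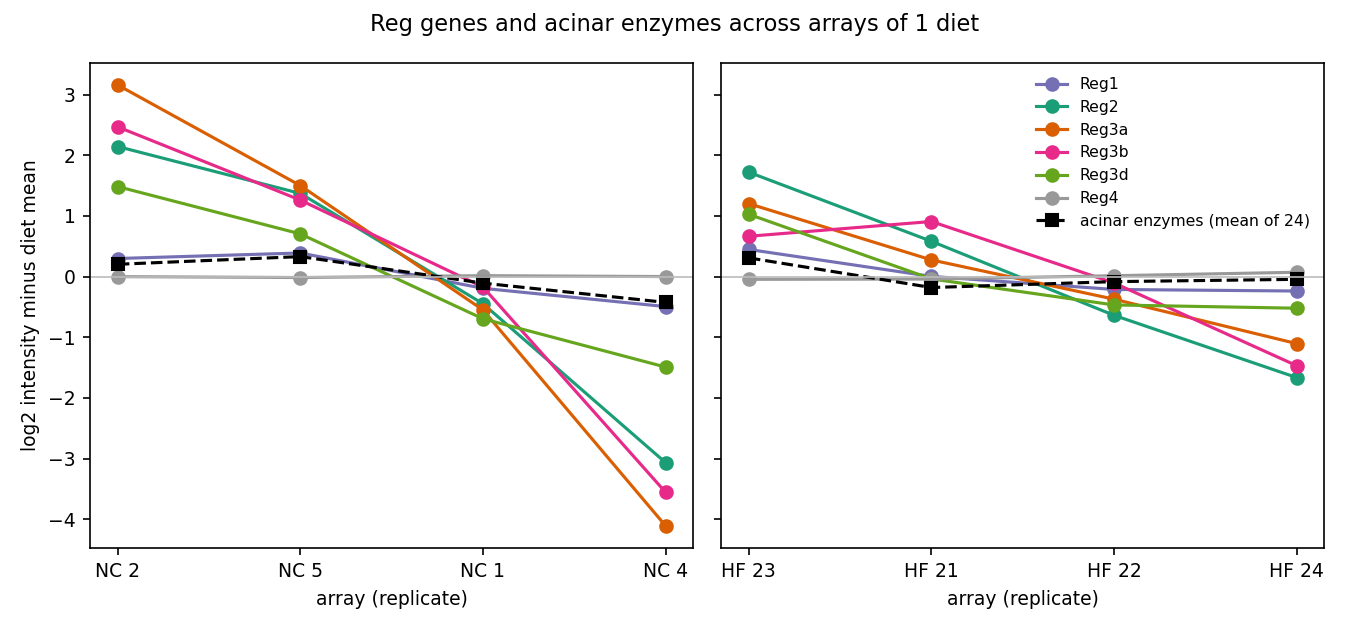
Log2 intensity minus the mean of the diet for 6 Reg genes and for the mean of 24 acinar enzymes (black, dashed) in each array, with NC and HF arrays each placed in the order of Reg2. The lines of Reg2, Reg3a, Reg3b and Reg3d fall together from NC replicate 2 to NC replicate 4, Reg1 and the acinar mean fall less, and Reg4 stays near 0.

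The genes most like each member were then listed, as the 5 with the highest r over the 8 arrays after the diet means were taken, among 2535 probe sets with an SD of at least 0.3. They were Aqp12 (0.98), Dmbt1 (0.97), Pard3 (0.96), Klk1b5 (0.96) and Pnliprp2 (0.96) for Reg1. For Reg2 they were Pard3 (0.97), Reg3a (0.96), Reg3b (0.96), Reg3d (0.95) and Dmbt1 (0.95). Reg3a had Reg3b (0.99), Reg2 (0.96), Pard3 (0.95), Reg3d (0.95) and Dmbt1 (0.94), and Reg3d had Pard3 (0.99), Dmbt1 (0.97), Reg2 (0.95), Reg3a (0.95) and Reg1 (0.95). Reg3b had Reg3a (0.98) and Reg2 (0.96) with Endog (0.97), Sardh (0.94) and Arc (0.94). So other members of the family came up for Reg2, Reg3a, Reg3b and Reg3d, and Dmbt1 and Pard3 for 4 members each. Dmbt1, a secreted mucosal scavenger protein, had 4607 to 11735 in NC and 4648 to 7665 in HF, and Pard3, a cell polarity protein, had 814 to 1516 and 874 to 1277. Reg4, whose intensities all lay near 10.5, was most like Armc7 (0.96), Hells (0.96), Vegfc (0.93), Apex2 (0.93) and Hecw2 (0.92).

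Among 14 measured genes of the gp130 and interleukin 22 pathway, a cytokine arm known to induce Reg genes in acinar cells, 3 fell in HF and 0 rose, beside 4.31% and 0.45% of 12233 genes, and the list's median log2 fold change was -0.17 (0.00 over all genes). Il6, the cytokine itself, had 65.8 to 448 in NC and 11.8 to 57.9 in HF, without overlap, a log2 fold change of -3.00 (adjusted p = 0.0436 by limma). Il6st, which encodes the shared receptor chain gp130, fell from 983 ± 114 to 584 ± 39.1 (SD, n = 4 each). Its log2 fold change was -0.75 (adjusted p = 0.00386 by limma), and 2 of its 4 kept probe sets passed. Osmr, the oncostatin M receptor, fell from 190 ± 7.73 to 89.6 ± 22.2, a log2 fold change of -1.12 (adjusted p = 0.00584 by limma). Markers of other cell types fell in the same comparison, 8 of 8 of fibroblasts and stellate cells (median log2 fold change -2.43) and 3 of 4 of B and plasma cells. So did 3 of 7 of macrophages and monocytes and 2 of 7 of endothelial cells. The part of these markers in the fall of Il6, Il6st and Osmr was not tested. The listed T and NK cell markers were under the intensity limit and were not tested. The Il6 call was lost without any 1 of NC replicates 1, 2 and 5 and HF replicates 21, 23 and 24 (adjusted p of 0.0798 to 0.118 by limma) and also with no intensity limit (0.102) and with the acinar level as a covariate (0.0953).

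The other 11 measured genes of that arm did not pass. Stat3, the transcription factor, had a log2 fold change of -0.12 (adjusted p = 0.772 by limma), and Socs3, a STAT3 target that feeds back on the receptor, had -0.28 (adjusted p = 0.301). Cish, a STAT target of the same family, had -1.82 (adjusted p = 0.118). Il6ra, the receptor chain specific to interleukin 6, had 919 to 1839 in NC and 1934 to 2052 in HF without overlap, a log2 fold change of 0.61 (adjusted p = 0.109). The genes of the arm ordered the arrays in different ways, some of them partly as the Reg genes did. Il6 was highest in NC replicate 1 and HF replicate 22. Stat3 was highest in NC replicate 2 and HF replicate 21 and lowest in NC replicate 4, as Reg3b was. Il6ra had the HF order of Reg2 but was highest in NC replicate 4, and Osmr and Cish were highest in NC replicates 2 and 5 and lowest in NC replicate 1. The part of this arm in the spread of the Reg genes was not tested.

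**Figure D5:**
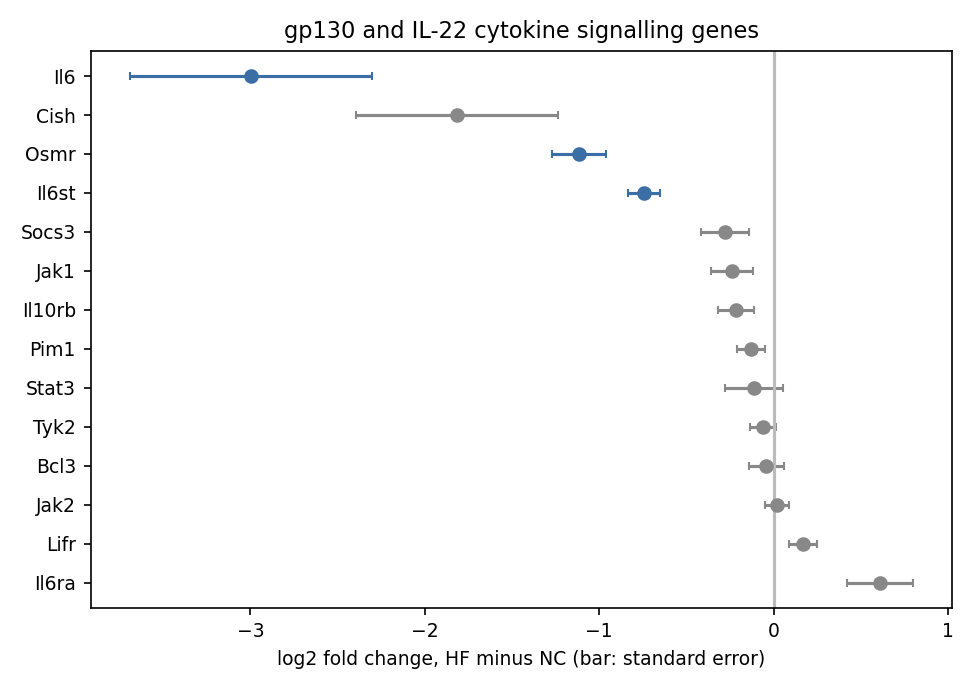
Log2 fold change (HF minus NC) with its standard error for the 14 measured genes of the gp130 and interleukin 22 pathway. Blue marks Il6, Osmr and Il6st, which passed, and grey the 11 that did not.

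Other groups of genes bear on where the Reg transcripts could come from and act. Of the 24 acinar enzymes 0 passed in either direction (1 to 2 fell under some alternatives), and 19 had a lower log2 mean in HF. The median log2 fold change was -0.02 for the 16 that exceeded 20000 and -0.40 for the 8 that did not. All 8 of the latter had a lower log2 mean in HF (Gp2 and Prss3 by -1.07 and -1.15), and 0 of them passed. The mean log2 level of these 8 was 10.3 in NC and 9.79 in HF, a difference that was not tested. The diets overlapped in that level, with arrays at 9.63 to 10.8 in NC and 9.49 to 10.3 in HF. Of the 3 acinar transcription factors 0 passed, and they did not move in 1 direction. Ptf1a, which drives the acinar fate, had 46.9 ± 16.4 in NC and 29.0 ± 3.91 in HF (log2 fold change -0.64). Bhlha15 went the other way, with 1097 ± 192 in NC and 1573 ± 235 in HF (log2 fold change 0.53). Nr5a2 differed little (log2 fold change 0.07). Of 10 duct markers 1 fell, Pigr, the receptor that carries immunoglobulin A across epithelia (log2 fold change -1.06, adjusted p = 0.0256 by limma, 1 of its 2 kept probe sets). The log2 mean was lower in HF for 8 of the 10 (median log2 fold change -0.33). Their mean log2 level was 7.69 to 7.91 in NC and 7.22 to 7.37 in HF, without overlap. Their summed intensity did overlap, with 12780 to 13854 in NC and 12345 to 15227 in HF. The duct level was not tested. Of 10 beta cell markers, 3 alpha cell markers and 3 markers of delta and PP cells 0 passed. The falls of the fibroblast, B and plasma cell, macrophage and endothelial markers given above stood beside the Reg values as well, and their part in them was not tested. The Pigr call was lost without any 1 of NC replicate 4 and HF replicates 22, 23 and 24 (adjusted p of 0.0556 to 0.0647 by limma), with no intensity limit (0.0611) and with the acinar level as a covariate (0.0515).

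A further 5 lists covered proposed Reg receptors, the acinar injury response, antimicrobial and mucosal repair, other C-type lectins, and beta cell proliferation and survival. Together they held 3 genes that fell and 0 that rose among 45 measured entries (6.67% fell, beside 4.31% of all genes). Of 4 proposed Reg receptors and binding partners 0 passed, with Extl3, the exostosin-like protein reported to bind Reg proteins, at 349 ± 1.77 in NC and 344 ± 35.3 in HF. Of 12 genes of the acinar injury response 0 passed, although Atf3, a stress transcription factor, had 575 to 1182 in NC and 115 to 478 in HF (log2 fold change -1.78, adjusted p = 0.0513 by limma). Of 9 antimicrobial and mucosal repair genes 1 fell, Lyz1, the lysozyme of Paneth cells (log2 fold change -1.07, adjusted p = 0.00205 by limma), whose probes may also bind the transcript of its close copy Lyz2. Of 8 other C-type lectins 1 fell, Mrc1, the macrophage mannose receptor (log2 fold change -1.48, adjusted p = 0.00295 by limma). Of 12 genes of beta cell proliferation and survival, a process in which Reg proteins have been proposed to act, 1 fell, Bcl2 (log2 fold change -0.71, adjusted p = 0.00282 by limma, 1 of its 3 kept probe sets), and 0 rose.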

How the data were processed

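Per the labels, the authors computed one value per probe set from the scanned arrays with GCRMA in ArrayAssist Lite 3.4, which corrects the background and puts the arrays on a common scale. The intensity values, deposited on a linear scale, were converted to log2 and not normalized again. The diet difference was fitted with limma 3.58.1 (lmFit, eBayes) under R 4.3.3, with diet alone as a factor, all 8 arrays and Benjamini-Hochberg adjustment over 25414 probe sets, and a call needed an adjusted p under 0.05 and a fold of at least 1.5. The study's own program for this step, SAM, was not run, and its present flags were replaced by the limit of 9 on the third-highest intensity. Each gene of the 16 lists was represented by its kept probe set with the highest mean. Genes were named by a rule: all members, up to 3 genes per list by smallest p and then highest mean, and the 5 genes most like each member. Atf3, Cish, Gp2, Il6ra, Krt19, Prss3, Socs3, Stat3 and Tff2 were chosen after their values were seen. The members and the lists were chosen with earlier results of these data known. The test was checked on simulated data. The number of arrays limits the precision. Alternatives were other filters, scalings, spread models, array weights, the acinar level as a covariate, an unpaired Student test, other fold rules and leaving out each array. The methods name the Student test for group comparisons in general, while the study tested its arrays with SAM.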

Additional observations from a re-analysis of the deposited data

Results flagged for a closer look

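A value was picked out where 1 of the 4 arrays of a diet stood far from the other 3 by Dixon's test at its 95% critical value. Of 168 groups tested 13 were picked out (7.74%), where chance picks out about 5%. The groups share arrays and include genes chosen for likeness to a member, so these shares are not a test. Among the members this was Reg3g in NC replicate 2, with an intensity of 75.9 where the other NC arrays had 5.12 to 8.94. Among acinar genes, HF replicate 23 stood above the other HF arrays for Ctrb1 (41944 against 38110 to 38250), Cpb1 (58563 against 51841 to 52568), Pnliprp2 (15713 against 11160 to 11420) and, among the genes most like Reg1, Klk1b5 (494 against 296 to 328). HF replicate 24, the lowest array of the chromosome 6 members in HF, stood below the others for 2 genes most like Reg3b, Sardh (17.2 against 19.9 to 20.3) and Arc (112 against 188 to 198). Klk1b5, Sardh and Arc were chosen for their likeness to a member over the same arrays. Their place in these arrays follows in part from that choice. HF replicate 22 stood above the others for Il6 (57.9 against 11.8 to 15.1) and below them for Cdkn1b (4646 against 5788 to 5830). HF replicate 21 stood above the others for Gcg (88297 against 82143 to 82814) and Lyz2 (446 against 302 to 322). In NC, replicate 1 was below the others for Iapp (77860 against 79709 to 80031) and replicate 5 above them for Clu (17638 against 14492 to 14877).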

How the results depend on the processing

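Of 139 values of the 7 tested Reg probe sets under up to 20 alternatives, 135 kept their direction and their side of the threshold, 1 passed (Reg3a without NC replicate 4) and 3 turned direction. Those 3 were Reg4 at -0.0855 with arrays scaled to equal beta cell markers (which moves the median of all probe sets by -0.11), Reg4 at -0.0034 without HF replicate 24 (-0.0034 to 0.0355 over the leave-outs), and Reg1 at 0.0503 with the acinar level as a covariate. The number of Reg probe sets that passed was 0, and 0 to 1 when an array was left out. List genes that fell numbered 23, and 36 with the beta cell scaling, 35 by the unadjusted Student test, 16 by the adjusted one, 18 with no intensity limit and 19 to 26 with an array left out. List genes that rose numbered 0, and 1 by the unadjusted Student test, 1 with no fold limit and 0 to 1 with an array left out. Of the list genes that fell, Il6, Pdgfra, Pdgfrb, Pigr, Ighm and Ms4a1 lost their call without some single array. Over all kept probe sets 949 passed, against 512 by the adjusted Student test and 1580 with no fold limit. Folds of linear means were -4.31 for Reg3a, -2.90 and -3.39 for Reg3b, -2.27 for Reg2 and -1.47 for Reg3d, log2 of the ratio of means, which follow the highest arrays most. By the Student test, which was not the study's own test for the arrays, 0 Reg probe sets passed, with or without adjustment. No pair of members passed in any of the alternatives run for pairs. No paired analysis was possible because NC and HF arrays share no replicate number. Intensities under about 9, as for Reg3g, or little above it, as for Reg4, and above 20000, as for Reg1, limit what a fold can show.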
